A study of Mus musculus with 20 samples.

Results

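Glucose enters uterine cells through facilitative transporters, is trapped by hexokinase and is stored as glycogen, and 10 genes of this route were followed here in mouse uterus at the time of implantation. They were chosen by gene symbol and are Slc2a1, Slc2a3, Slc2a4, Slc2a8 and Slc2a12 (transporters), Hk2 (glucose phosphorylation), Gys1 and Gbe1 (glycogen synthesis) and Pygl and Pygm (glycogen breakdown), 10 of the 45777 genes in the table. All 10 were listed above 0 TPM (an abundance per transcript length that is scaled to a fixed total in each library) in all 20 libraries, as were 18706 genes in all, which were the genes tested. Uterine polyadenylated RNA was sequenced from wild-type B6D2F1 females aged 8 to 12 weeks that had been mated with males, with 1 uterine horn and 1 library per mouse and 5 mice in each of 4 groups. Uteri were collected at 18:00 on day 3.5 after mating, before the embryo attaches. The control group received no treatment. The implantation failure (IF) group received 3 mg/kg RU486 (mifepristone, an antagonist of the progesterone and glucocorticoid receptors) under the skin that morning. The PBMC and PBMC-hCG groups received the same RU486 after 50000 peripheral blood mononuclear cells from non-pregnant mice had been placed in each horn on day 1.5, and in the PBMC-hCG group these cells came from culture with human chorionic gonadotropin at 5 IU/mL. Mice given culture medium without cells were not analysed here, so the effect of the intrauterine injection itself cannot be told apart from that of the cells.

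As background, members of the GLUT family move glucose down its gradient, and they differ in affinity, in location within the cell and in response to insulin. Hexokinase phosphorylates the glucose that has entered. Glycogen synthase then adds glucose units to a growing chain, the branching enzyme makes its branch points, and glycogen phosphorylase releases the units again. The uterus stores glycogen under ovarian steroids, and the stroma that turns into decidua around the embryo takes up much glucose.

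Of the 10 genes, 8 had an entry in the RefSeq promoter table for GRCm38.p6, the assembly that mm10 is based on, and Slc2a3 and Slc2a4 did not. The 250 bases before the annotated start were searched on both strands for 6 motifs, and the motifs share letters where the E-box CACGTG contains ACGTG. The core of the hypoxia response element, ACGTG, was found in 4 of the 8 windows against 16.6% of 32851 windows of the same length. These are the windows of Slc2a1, Hk2, Pygm and Pygl, and the windows shown are the 4 with this match. The first 3 of these genes were called between PBMC-hCG and IF mice, in differing directions (Slc2a1 and Hk2 lower, Pygm higher), and Pygl was not. Of the genes called between IF and control mice, Slc2a12 had no match in its window and Slc2a3 had no window. Any link between the motif and expression was not tested. They read 5′ to 3′ on the gene's strand, and capitals mark ACGTG on either strand.

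Slc2a1, chr4:119108495-119108744, plus strand: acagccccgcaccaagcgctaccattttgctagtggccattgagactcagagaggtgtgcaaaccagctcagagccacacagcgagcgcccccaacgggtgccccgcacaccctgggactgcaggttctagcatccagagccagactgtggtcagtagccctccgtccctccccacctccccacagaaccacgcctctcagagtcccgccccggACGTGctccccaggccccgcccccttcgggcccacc
Hk2, chr6:82774455-82774704, minus strand: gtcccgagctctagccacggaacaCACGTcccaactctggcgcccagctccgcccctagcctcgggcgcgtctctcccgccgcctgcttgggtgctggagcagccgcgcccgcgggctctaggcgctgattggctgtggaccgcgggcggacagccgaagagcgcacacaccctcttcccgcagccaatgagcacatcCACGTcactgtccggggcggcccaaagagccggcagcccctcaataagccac
Pygm, chr19:6384158-6384407, plus strand: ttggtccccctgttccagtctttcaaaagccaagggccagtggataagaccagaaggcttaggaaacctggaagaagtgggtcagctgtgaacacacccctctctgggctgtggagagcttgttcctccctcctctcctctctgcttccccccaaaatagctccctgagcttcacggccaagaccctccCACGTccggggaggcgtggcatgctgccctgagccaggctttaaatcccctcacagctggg
Pygl, chr12:70227684-70227933, minus strand: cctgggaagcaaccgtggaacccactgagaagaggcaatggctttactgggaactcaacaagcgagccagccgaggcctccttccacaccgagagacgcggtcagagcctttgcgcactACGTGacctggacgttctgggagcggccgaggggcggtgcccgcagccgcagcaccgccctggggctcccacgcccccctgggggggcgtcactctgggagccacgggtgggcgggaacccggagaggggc

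The match lay at -36 from the start in Slc2a1, at -61 in Pygm, at -131 in Pygl and at -226 and -52 in Hk2. The GC box GGGCGG was found in 4 of the 8 windows (Slc2a1, Gys1, Pygl and Hk2) against 32.7% of all windows. CACGTG (6.02% of all windows), the TATA box TATAAA (12.4%), the half-site AGAACA of the elements shared by progesterone and glucocorticoid receptors (16.1%) and the palindromic estrogen response element (0.0639%) were found in 0 of the 8. The 4 windows shown were 58.4% (Pygm) to 69.6% (Hk2) G and C, where the median window was 52.4%. A match is a string of letters and not a measured site.

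The total per library was 999988 to 999999 TPM and 22702 to 24097 genes were above 0, so the number of reads behind a value is unknown. The median correlation of a library with the others of its group was 0.963 to 0.990, the lowest in control replicate 2. In that mouse the 8 adipocyte markers summed to 619 TPM, against 3.54 to 33.3 TPM in the other control mice, the 8 epithelial markers to 2265 TPM against 860 to 1100 TPM, and the 8 stromal markers to 5214 TPM against 8531 to 9088 TPM. The adipocyte markers also summed to 141 TPM in IF replicate 5, against 3.01 to 6.06 TPM in the other IF mice. In PBMC replicate 4 they summed to 51.5 TPM, against 3.05 to 7.48 TPM in the other PBMC mice. All 8 uterine markers, among them Esr1, Pgr and Hoxa10, were above 0 TPM in all libraries, with sums of 647 to 862 TPM. The labels name no sequencing batch or date, and nothing states whether mice were littermates. Comparisons with control were therefore also read without control replicate 2, one of the planned fits, and without control replicates 2 and 5, a choice made after their values had been seen.

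Between IF and control mice, 4 of the 10 genes passed an adjusted p of 0.05 (limma on log2(TPM + 0.1), Benjamini-Hochberg adjustment over all 18706 genes): Slc2a1 was upregulated and Slc2a3, Slc2a12 and Pygm were downregulated. The share of all tested genes that passed was 21.9%. By the criteria the study used for DEGs, a fold change of at least 2 with a raw p under 0.05, only Slc2a3 was counted among the 10, and 4.03% of all genes were. Between PBMC-hCG and IF mice 3 of the 10 genes passed, Pygm upward and Slc2a1 and Hk2 downward, against 13.6% of all genes, and Hk2 was the member counted as a DEG (2.31% of all genes). Between PBMC and IF mice 0 of the 10 genes and 0% of all genes passed in limma, while 1 of the 10 (Slc2a1) and 1271 of all genes had a raw p under 0.05. By the DEG criteria 0 of the 10 and 0.438% of all genes were counted there.

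Against the control group, 3 of the 10 genes were called in PBMC mice (Slc2a3, Slc2a12 and Pygm, all lower) with 19.5% of all genes, and 4 in PBMC-hCG mice (Slc2a8 and Pygl higher, Slc2a3 and Hk2 lower) with 31.8% of all genes. Slc2a3 was the member counted as a DEG in both comparisons, at backgrounds of 3.34% and 4.74%. Between PBMC-hCG and PBMC mice 0 of the 10 genes passed, as 0.0107% of all genes did, and 1 (Hk2) had a raw p under 0.05, against 3024 of all genes. By the DEG criteria 0 of the 10 and 0.893% of all genes were counted. The median log2 fold change of the 10 genes was -0.064 in IF against control mice and 0.075 in PBMC-hCG against IF mice, beside medians over all genes of 0.022 and 0.049. Counts of 3 or 4 in a set of 10 are too small to be set apart from these backgrounds. The comparisons with control share the 5 control libraries and those with IF share the 5 IF libraries, so they are not independent of each other.

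**Figure D1:**
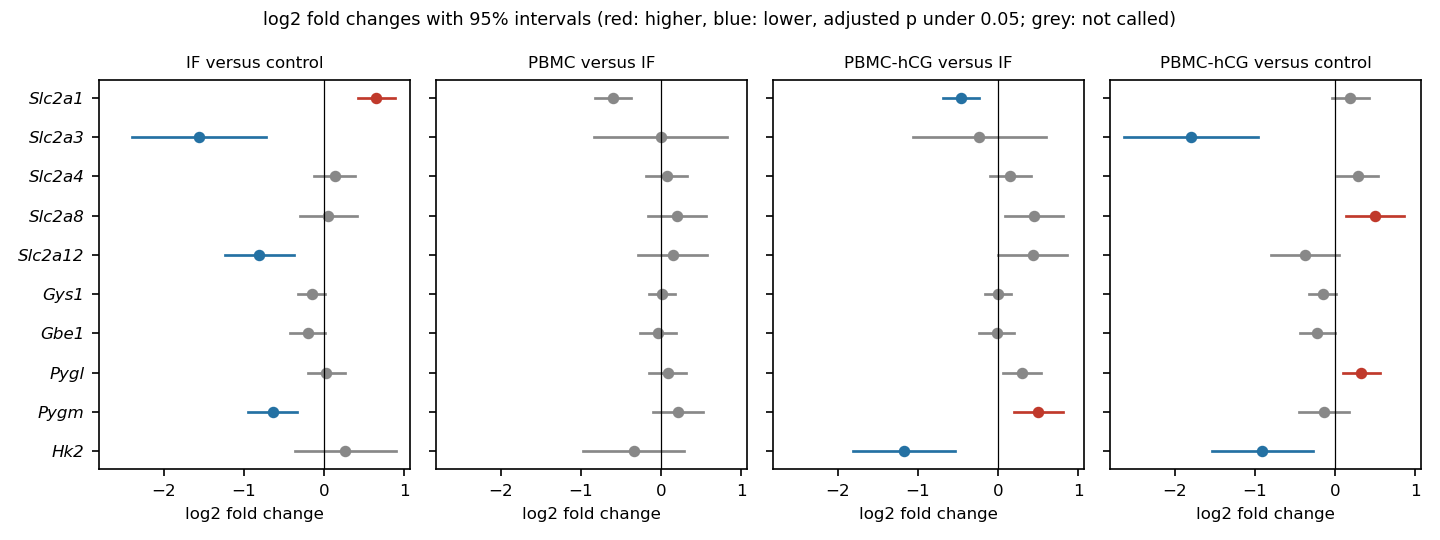
log2 fold change of each of the 10 genes (x axis, log2 scale of TPM + 0.1) in 4 comparisons, with lines for the 95% intervals from limma, coloured where the adjusted p was under 0.05 (red higher, blue lower, grey not called). Slc2a1 lies to the right of 0 in IF mice against control and to the left in both groups given cells against IF.

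Slc2a1 (NCBI gene 20525, chromosome 4, 119108745 to 119137330, GRCm38) encodes GLUT1, the widely expressed transporter that carries basal glucose uptake and is raised in decidualizing stroma. Of the 10 genes it had the largest moderated F over the 4 groups, rank 967 of 18706. In control mice it was at 33.2, 39.5, 33.1, 37.4 and 42.6 TPM (replicates 1 to 5), and in IF mice at 46.8, 58.0, 60.4, 59.3 and 69.0 TPM. The lowest IF mouse was above the highest control mouse. The means were 37.2 ± 4.11 TPM (SD, n = 5) and 58.7 ± 7.93 TPM (SD, n = 5), a 1.57-fold rise (log2 fold change 0.65, standard error 0.11, adjusted p = 0.000258). This call held in each of the 10 fits that left out 1 mouse, with adjusted p between 9.21e-05 and 0.00116, and without control replicates 2 and 5 the log2 fold change was 0.75 (adjusted p = 0.000237).

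In PBMC mice Slc2a1 was at 35.8, 39.0, 36.3, 35.3 and 47.0 TPM, so that only replicate 5 reached the range of the IF group, above IF replicate 1. The mean of 38.7 ± 4.89 TPM (SD, n = 5) was 0.661 of the IF level on the fitted scale, or -0.60 in log2 (standard error 0.11, 95% interval -0.82 to -0.37). Its raw p was 2.56e-05 and its adjusted p 0.273 by limma, and without IF replicate 1 the adjusted p was 0.0398. The fall in PBMC mice was therefore not called, although 4 of the 5 were below all IF mice.

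In PBMC-hCG mice Slc2a1 was at 52.3, 39.8, 38.1, 40.5 and 41.6 TPM. Replicate 1 lay among the IF mice and the other 4 lay below all of them. The mean was 42.5 ± 5.65 TPM (SD, n = 5), 0.725 of IF (log2 fold change -0.46, standard error 0.11, adjusted p = 0.0287). In 7 of the 10 fits without 1 mouse (IF replicates 2, 4 or 5, PBMC-hCG replicates 2, 3, 4 or 5) the adjusted p was over 0.05, up to 0.0989, at log2 fold changes of -0.47 to -0.40. In those same fits the number of genes called over the whole table fell from 2544 to between 0 and 34. Against control, the log2 fold change of Slc2a1 was 0.05 in PBMC mice (95% interval -0.17 to 0.28, adjusted p = 0.780) and 0.19 in PBMC-hCG mice (-0.04 to 0.42, adjusted p = 0.196). In order of mean the groups stood at control, PBMC, PBMC-hCG and IF, and the first 3 were not separated from each other by the test.

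Slc2a3 (NCBI gene 20527, chromosome 6, 122727809 to 122802363) encodes GLUT3, the high-affinity transporter of neurons, embryos and placenta. The control mice differed widely, since replicates 1, 3 and 4 were at 103, 78.6 and 98.7 TPM, and replicates 2 and 5 at 14.5 and 23.9 TPM. The IF mice, at 15.9, 17.6, 12.9, 14.2 and 23.5 TPM, were all within or below the range of those last 2 controls. The PBMC group spanned 13.9 to 20.5 TPM and the PBMC-hCG group 12.9 to 15.0 TPM. The means were 63.7 ± 41.7, 16.8 ± 4.13, 16.6 ± 2.60 and 14.0 ± 0.833 TPM (SD, n = 5 each) in control, IF, PBMC and PBMC-hCG mice. The coefficient of variation was 65.5% in controls and 5.94% in PBMC-hCG mice.

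Slc2a3 was downregulated in all 3 groups that received RU486. Against control its log2 fold change was -1.56 in IF mice (SE 0.40, adjusted p = 0.00837), -1.57 in PBMC mice (adjusted p = 0.00881) and -1.80 in PBMC-hCG mice (adjusted p = 0.00233). Between IF and control, the ratio of the means was 0.264 and the fitted fold 0.339, because the log scale weighs the 2 low controls more. Without control replicates 2 and 5 the log2 fold change was -2.49 (adjusted p = 2.87e-08). When the spread was estimated from the 2 groups alone, which puts the scatter of the controls at full weight, the adjusted p was 0.0726 in IF and 0.0664 in PBMC mice. The log2 fold change of PBMC-hCG against IF mice was -0.23 with a 95% interval of -1.07 to 0.60, so that neither return toward control nor a further fall was resolved.

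Slc2a12 (NCBI gene 353169, chromosome 10, 22644990 to 22703880) encodes GLUT12, a transporter of muscle, heart and fat. It was at 63.2, 25.2, 63.1, 67.0 and 54.6 TPM in control mice and at 31.8, 34.7, 27.3, 30.5 and 24.1 TPM in IF mice. All controls but replicate 2 were above all IF mice. The mean fell from 54.6 ± 17.1 to 29.7 ± 4.12 TPM (SD, n = 5 each), to 0.571 of control on the fitted scale (log2 fold change -0.81, standard error 0.21, adjusted p = 0.00819), and without control replicates 2 and 5 it was -1.13 (adjusted p = 1.73e-05). With the spread of these 2 groups alone the adjusted p was 0.0532.

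In PBMC mice Slc2a12 was at 36.9, 36.3, 31.9, 35.8 and 23.8 TPM, lower than in controls (log2 fold change -0.67, adjusted p = 0.0282). That call was lost without control replicate 1, 3, 4 or 5 or without PBMC replicate 3 or 5, with adjusted p up to 0.0776. In PBMC-hCG mice it was at 36.02, 45.3, 44.7, 36.2 and 37.6 TPM, above all 5 IF mice. The mean of 39.97 ± 4.65 TPM (SD, n = 5) was 1.35 times the IF level, but that difference, 0.43 in log2 with a standard error of 0.21, did not pass (adjusted p = 0.141), and it passed with the 2 groups fitted alone (adjusted p = 0.0410). Against control the log2 fold change was -0.38 (adjusted p = 0.172), and -0.63 without control replicate 2 (adjusted p = 0.000802). The order of means was IF, PBMC, PBMC-hCG and control, with no neighbouring pair in it called.

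Slc2a8 (NCBI gene 56017, chromosome 2, 32972981 to 32982083) encodes GLUT8, a transporter held mostly in membranes inside the cell. It was at 10.8, 19.9, 12.9, 12.2 and 12.8 TPM in controls and at 17.2, 18.2, 19.0, 19.7 and 20.9 TPM in PBMC-hCG mice. Control replicate 2 alone reached the PBMC-hCG range. PBMC-hCG mice were 0.50 higher in log2 (standard error 0.17, adjusted p = 0.0330), a call lost without any 1 of control replicates 1, 3, 4 and 5 or PBMC-hCG replicates 2 to 5, with adjusted p up to 0.0895. It was also lost after median ratio scaling (0.0630) and without the filter on low values (0.0532), and without control replicate 2 it was 0.64 (adjusted p = 0.00365). The IF group spanned 10.4 to 17.8 TPM and the PBMC group 10.5 to 18.4 TPM. Against IF mice the PBMC-hCG group was 0.44 higher in log2 (adjusted p = 0.0797), which passed without IF replicate 3 (adjusted p = 0.0341).

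Slc2a4 (NCBI gene 20528, chromosome 11, 69942286 to 69948216), which encodes GLUT4, the insulin-responsive transporter of muscle and fat, was called in 0 of the 6 comparisons. Its means were 14.4 ± 2.09, 15.8 ± 2.21, 16.6 ± 2.67 and 17.4 ± 0.992 TPM (SD, n = 5 each) in control, IF, PBMC and PBMC-hCG mice. The largest difference, PBMC-hCG against control, was a log2 fold change of 0.28 (95% interval 0.03 to 0.54, adjusted p = 0.0849).

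**Figure D2:**
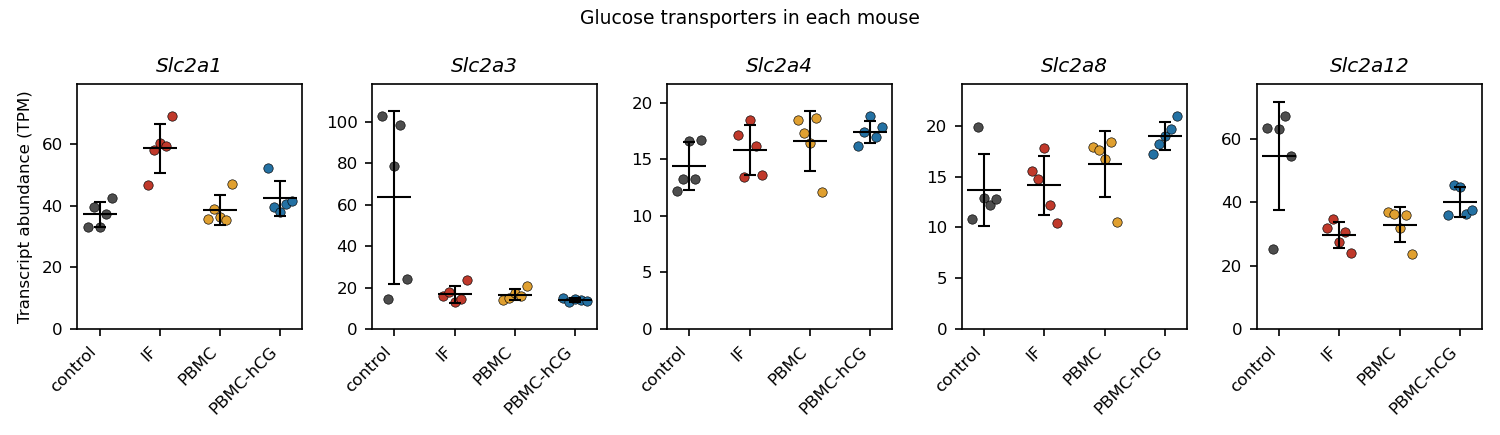
Abundance in TPM (y axis, from 0) of the 5 transporter genes in each mouse, by group, with the mean and SD of 5 mice as bars. For Slc2a1 the IF group has the highest mean and 4 of its 5 mice lie above all other mice, 3 of 5 control mice stand far above all others for Slc2a3, and 4 of 5 control mice are above all others for Slc2a12.

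TPM can be compared between genes, and the makeup of the 5 transporters differed between groups. Slc2a1 made up 36.8% to 49.1% (median 44.1%) of their summed TPM in IF mice and 14.9% to 35.2% (median 16.4%) in controls. The same share was 28.4% to 41.3% in PBMC mice and 28.2% to 38.3% in PBMC-hCG mice. Slc2a3 made up a median of 38.5% in controls but 12.9% in control replicate 2, and 9.43% to 18.0% over all mice that received RU486. The sum itself was 112 to 229 TPM in controls (median 204), with control replicate 2 the lowest of all 20 mice. It was 127 to 141 TPM in IF, 114 to 125 TPM in PBMC and 127 to 137 TPM in PBMC-hCG mice.

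**Figure D3:**
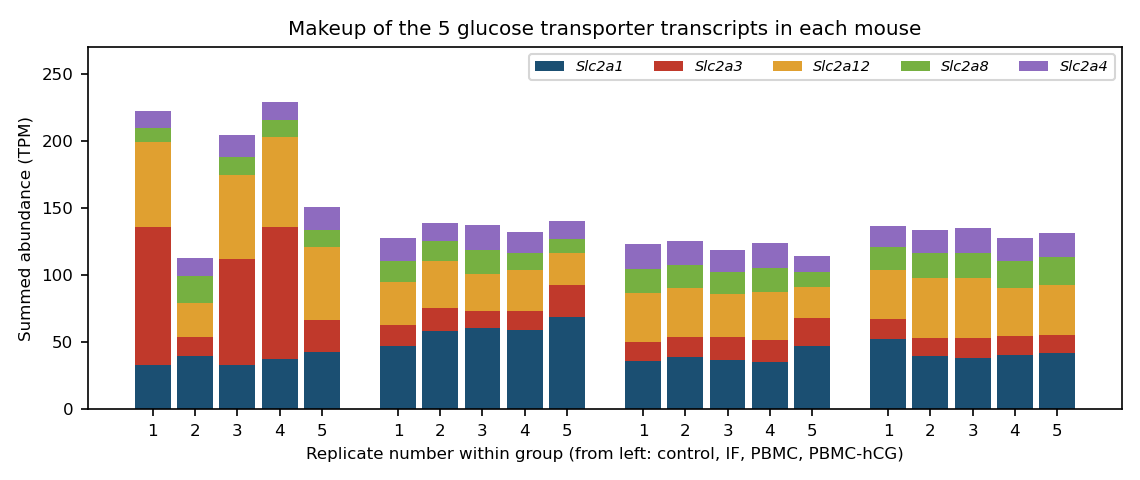
Summed TPM of the 5 transporters in each of the 20 mice (y axis, from 0), split by gene. Control replicates 1, 3 and 4 carry large Slc2a3 and Slc2a12 segments, and 4 of 5 IF mice have Slc2a1 segments larger than those of all mice outside their group.

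Hk2 (NCBI gene 15277, chromosome 6, 82725025 to 82774454) encodes the hexokinase of insulin-responsive and proliferating tissues, which binds mitochondria and commits glucose to the cell. It was at 14.2, 8.70, 13.1, 15.5 and 21.2 TPM in control mice and at 13.6, 16.8, 10.8, 18.0 and 29.9 TPM in IF mice. These groups overlapped widely, with a log2 fold change of 0.26 (95% interval -0.37 to 0.89, adjusted p = 0.587). PBMC mice were at 11.1, 10.8, 17.3, 7.77 and 25.1 TPM. PBMC-hCG mice were at 10.9, 7.03, 6.69, 6.12 and 6.97 TPM, of which 4 were below all other mice of the study.

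The mean of Hk2 in PBMC-hCG mice, 7.54 ± 1.91 TPM (SD, n = 5), compared with 17.8 ± 7.32 TPM (SD, n = 5) in IF mice. Hk2 was thus at 0.443 of the IF level on the fitted scale (-1.17 in log2, standard error 0.30, adjusted p = 0.0292). The adjusted p was over 0.05 without IF replicate 2, 4 or 5 or without PBMC-hCG replicate 2, 3, 4 or 5, up to 0.102, at log2 fold changes of -1.17 to -0.97. Against control the log2 fold change was -0.91 (adjusted p = 0.0271), and it was lost in 6 of the 10 fits without 1 mouse (control replicates 4 or 5, PBMC-hCG replicates 2 to 5), with adjusted p up to 0.0799. Without control replicate 2 it was -1.08 (adjusted p = 0.00904), and without control replicates 2 and 5 -0.94 (adjusted p = 0.0361). Against PBMC mice it was -0.83 (95% interval -1.46 to -0.20, adjusted p = 0.281), so the difference from mice given cells without hCG did not pass.

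With all mice, the glycogen synthesis genes did not pass in any of the 6 comparisons. Gys1 (NCBI gene 14936, chromosome 7, 45434839 to 45456617), the glycogen synthase of muscle and most other tissues, was at 18.1 to 24.02 TPM in controls and at 16.2 to 20.5 TPM over the 15 mice that received RU486. Its log2 fold changes between these 3 groups had 95% intervals within -0.18 to 0.17. Against control they were -0.16 to -0.15, with adjusted p of 0.134 to 0.213, and that of PBMC-hCG mice passed without control replicate 2 (-0.20, adjusted p = 0.0466) and after quantile normalization (0.0318) or median ratio scaling (0.0304), but not without control replicates 2 and 5 (-0.14, adjusted p = 0.179).

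Gbe1 (NCBI gene 74185, chromosome 16, 70313949 to 70569720), the branching enzyme, was at 18.0, 11.9, 16.3, 15.9 and 11.6 TPM in controls and at 11.3 to 13.7 TPM in all other mice. Control replicates 1, 3 and 4 were thus above all 15 RU486 mice, and replicates 2 and 5 were not, as for Slc2a3. IF mice differed from control by -0.20 in log2 (adjusted p = 0.184) with all mice and by -0.40 (adjusted p = 0.00125) without control replicates 2 and 5. Without those 2 mice it was -0.44 in PBMC and -0.42 in PBMC-hCG mice, with adjusted p of 0.000755 and 0.000697. Some planned fits gave a call too. For IF mice this was the fit without control replicate 5 (adjusted p = 0.0493). For PBMC mice these were the fits without control replicate 2 (0.0306) or 5 (0.0310) and after median ratio scaling (0.0401). For PBMC-hCG mice these were the fits without control replicate 2 (0.0280) or 5 (0.0310) and after quantile normalization (0.0302) or median ratio scaling (0.0242).

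Pygm (NCBI gene 19309, chromosome 19, 6384408 to 6398464) encodes the glycogen phosphorylase of muscle. It was at 44.1, 29.4, 45.3, 43.1 and 35.2 TPM in control mice and at 26.6, 25.5, 29.2, 24.7 and 19.4 TPM in IF mice, and the ranges did not overlap. The means were 39.4 ± 6.87 and 25.1 ± 3.59 TPM (SD, n = 5 each), so that IF mice had 0.640 of the control level (log2 fold change -0.64, standard error 0.15, adjusted p = 0.00408). The call held without any 1 mouse, with adjusted p between 0.000855 and 0.0142. In PBMC mice Pygm was at 30.6, 33.2, 29.0, 34.6 and 19.6 TPM, lower than in controls by a log2 fold change of -0.43 (adjusted p = 0.0467), which was lost without any 1 of control replicates 1, 3, 4 and 5 or PBMC replicates 1, 3 and 5 (adjusted p up to 0.116), with only these 2 groups in the fit (0.121), without the filter on low values (0.0757) and without the mean-variance trend (0.0558).

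In PBMC-hCG mice Pygm was at 30.4, 37.6, 38.2, 36.9 and 33.9 TPM, and every value was above every IF value. The rise over IF was 1.42-fold (0.50 in log2, standard error 0.15, adjusted p = 0.0382), and the difference from control was -0.14 in log2 (95% interval -0.45 to 0.17, adjusted p = 0.494). Without IF replicate 2, 4 or 5 or PBMC-hCG replicate 2, 3, 4 or 5 the adjusted p against IF was over 0.05, up to 0.126, at log2 fold changes of 0.41 to 0.52. It was 0.0627 without the filter on low values. The order of means was IF, PBMC, PBMC-hCG and control, and no neighbouring pair in it was called.

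Pygl (NCBI gene 110095, chromosome 12, 70190815 to 70227683) encodes the phosphorylase of liver. Controls were at 39.7, 50.5, 42.1, 42.3 and 38.0 TPM and PBMC-hCG mice at 46.3, 51.9, 60.8, 55.4 and 51.9 TPM, with control replicate 2 again inside the PBMC-hCG range. PBMC-hCG mice were 1.25-fold higher (0.32 in log2, standard error 0.11, adjusted p = 0.0312), which was lost in 6 of the 10 fits without 1 mouse (control replicates 1, 3, 4 or 5, PBMC-hCG replicates 3 or 4), with adjusted p up to 0.0861, and after quantile normalization (0.0579), median ratio scaling (0.0735) or without the filter on low values (0.0502). Without control replicate 2 it was 0.39 (adjusted p = 0.00977). The IF mice spanned 35.0 to 50.1 TPM and did not differ measurably from controls (log2 fold change 0.03, 95% interval -0.20 to 0.26). Against IF the log2 fold change in PBMC-hCG mice was 0.30 (adjusted p = 0.0710). It passed without IF replicate 3 (0.0322) or PBMC-hCG replicate 1 (0.0404).

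**Figure D4:**
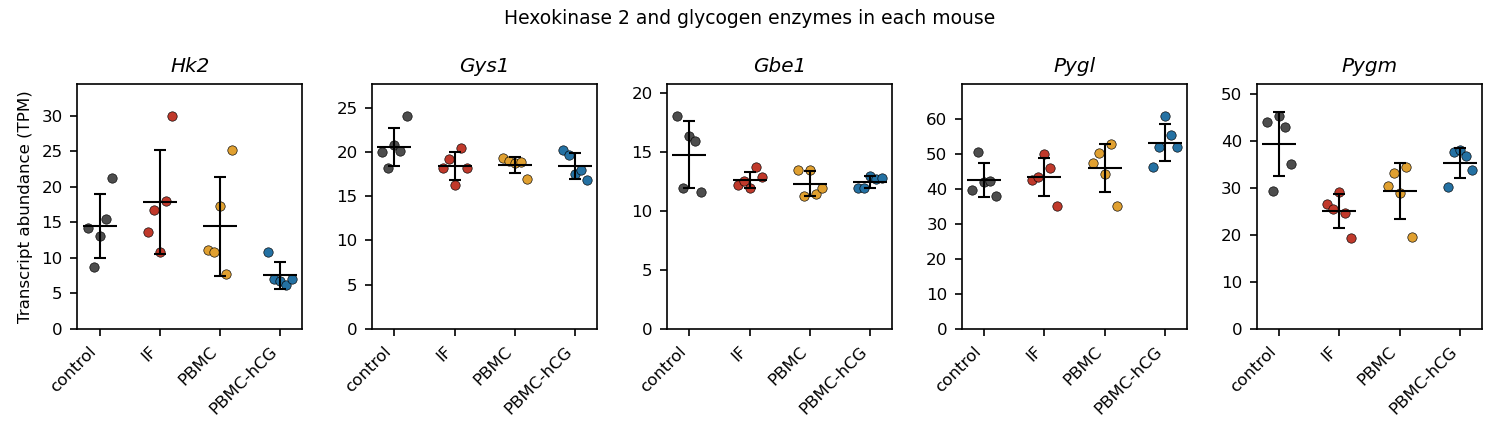
Abundance in TPM (y axis, from 0) of Hk2 and of the 4 glycogen enzyme genes in each mouse, by group, with the mean and SD of 5 mice as bars. Hk2 is lowest in PBMC-hCG mice, and Pygm is lowest in IF mice with no overlap with control or PBMC-hCG mice.

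Some of the 10 genes varied together from mouse to mouse. Over the 20 libraries, which share preparation and tissue makeup and include the differences between groups, Pearson's r of log2 values was -0.93 between Hk2 and Pygl, -0.86 between Hk2 and Slc2a8, 0.88 between Pygl and Slc2a8, 0.87 between Slc2a12 and Pygm, and 0.85 between Slc2a3 and Gbe1. Slc2a1 and Pygm were inversely related (r = -0.75). The mouse with the highest Hk2, IF replicate 5, had the lowest Pygl. PBMC replicate 5 and then control replicate 5 (Hk2 21.2 TPM, Pygl 38.0 TPM) were next in both respects. These are descriptions over mice of 4 groups and no test was made.

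**Figure D5:**
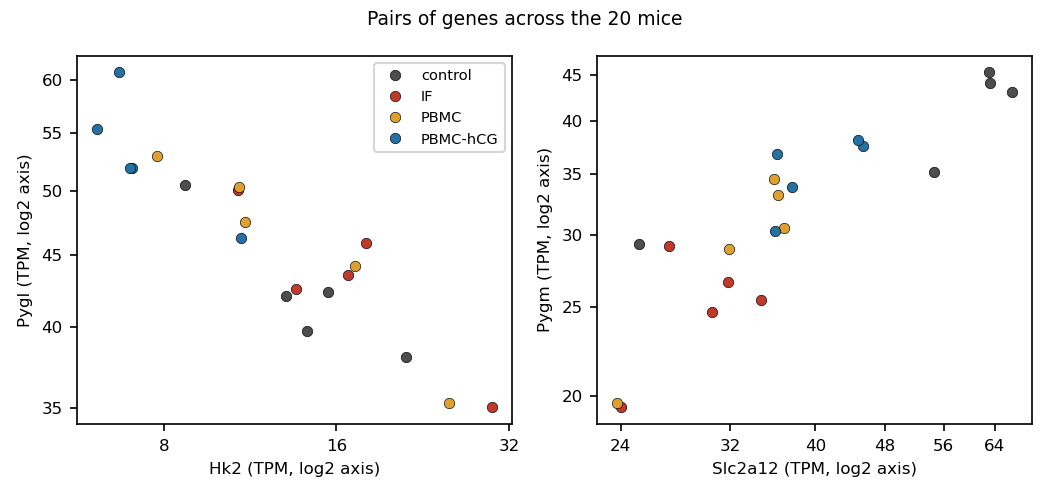
Each point is 1 of the 20 mice, coloured by group. Left, Hk2 against Pygl, and right, Slc2a12 against Pygm, in TPM on log2 axes. High Hk2 goes with low Pygl within and across groups, and Slc2a12 and Pygm rise together.

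For the 3 members with the largest F, the genes with the most similar profile were sought among 15771 genes with a mean of at least 1 TPM. Those closest to Slc2a1 over the 20 libraries were Slc7a5 (Pearson r = 0.89, Spearman rho = 0.71), a large neutral amino acid transporter, Pnp2 (0.89 and 0.83), a purine nucleoside phosphorylase, and Atp8b1 (0.88 and 0.69), a phospholipid flippase. Slc7a5 had means of 37.0, 64.2, 40.8 and 39.3 TPM in control, IF, PBMC and PBMC-hCG mice. Those closest to Slc2a3 were Kbtbd8 (0.96 and 0.65), 9530014B07Rik (0.94 and 0.60) and Vopp1 (0.93 and 0.60). All 3 were highest in control replicates 1, 3 and 4, with Kbtbd8 at 9.47, 7.82 and 8.61 TPM there and at most 1.65 TPM in the other 17 mice. Those closest to Pygm were Mmab (0.96 and 0.94), an enzyme of cobalamin metabolism, Ralgps2 (0.96 and 0.94), a guanine nucleotide exchange factor, and Crispld1 (0.96 and 0.94).

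The other genes of glucose and glycogen metabolism were counted in lists. Over all tested genes 21.9% were called between IF and control, 13.6% between PBMC-hCG and IF and 31.8% between PBMC-hCG and control mice. No count of a list was tested against these shares. Of 12 other tested genes of glycogen synthesis, 2 were higher and 2 lower in IF than in control mice. Ppp1r3c, which targets a phosphatase to glycogen and so activates its synthase, rose from 13.02 ± 4.02 to 24.6 ± 3.28 TPM (SD, n = 5 each, log2 fold change 0.96, adjusted p = 0.00226 by limma). Pgm2, a phosphoglucomutase, and Ugp2, which makes the UDP-glucose that the synthase uses, were lower (log2 fold changes -0.55 and -0.48, adjusted p of 0.00362 and 0.0241). Of 10 other breakdown genes 1 was higher and 1 lower, Stbd1, which tethers glycogen to membranes (0.80, adjusted p = 1.27e-06), and Nhlrc1, which encodes malin (-0.57, adjusted p = 0.00191).

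Of 27 other hexokinase and glycolysis genes, 4 were higher and 7 lower in IF than in control mice, beside 21.9% of all genes called. Among the lower were Pfkfb3, which makes the activator of phosphofructokinase (log2 fold change -0.63, adjusted p = 0.0375), Tpi1, triose phosphate isomerase (-0.51, adjusted p = 8.20e-05), and Eno1, enolase (-0.48, adjusted p = 0.0134). In the pentose phosphate pathway 1 of 8 genes was higher (H6pd, 0.44) and 4 were lower, among them Tkt, transketolase, which fell from 161 ± 7.58 to 108 ± 9.07 TPM (SD, n = 5 each, -0.57, adjusted p = 1.37e-06), and Rpe (-0.33). Of 4 genes of glucose production G6pc3, a glucose phosphatase, was lower (-0.44, adjusted p = 0.00141). None of the 8 other listed and tested transporters of the Slc2a and Slc5a families passed.

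Of 16 regulators of glucose uptake, 7 were higher and 2 lower in IF than in control mice, beside 21.9% of all genes called. Tbc1d4, which holds GLUT4 vesicles inside the cell until insulin acts, fell from 16.5 ± 5.41 to 7.81 ± 1.22 TPM (SD, n = 5 each, log2 fold change -1.03, adjusted p = 0.000107 by limma). Irs2, an insulin receptor substrate, rose (0.89, adjusted p = 0.0184), as did Prkaa2, a catalytic subunit of AMP-activated kinase (0.58, adjusted p = 0.0238). The 15 genes of these lists named for IF against control kept their direction and call without control replicate 2 and without control replicates 2 and 5. The log2 fold change of Pfkfb3 was then -0.77 and -1.07, that of Ugp2 -0.66 and -0.80, and that of Tbc1d4 -0.85 and -0.87. These genes had been chosen because they were called with all mice. Both fits also called more genes over the whole table, 5012 and 4565 against 4104. The 15 genes were not read with only the 2 groups in the fit. Without control replicate 2 the glycolysis list had 3 genes higher and 8 lower, and the regulators 8 and 1.

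Between PBMC and IF mice 0 genes of these lists were called, as 0% of all genes were. The calls between PBMC-hCG and IF mice follow, beside 13.6% of all genes called. Without IF replicate 2, 4 or 5 or PBMC-hCG replicate 2, 3, 4 or 5, only 0 to 34 genes of the whole table were called, against 2544. The listed genes were not read singly in those fits. Of the 27 glycolysis genes 2 were higher, Pfkm (0.61, adjusted p = 0.0287), the phosphofructokinase of muscle, and Gpi1 (0.17), and 1 was lower. Pygb, the brain phosphorylase and by TPM the most abundant of the 3 phosphorylases, was higher (108 ± 13.8 against 135 ± 10.6 TPM, SD, n = 5 each, log2 fold change 0.33, adjusted p = 0.0471 by limma). Slc37a4, which carries phosphorylated glucose into the endoplasmic reticulum, and Pck2 were higher (0.59 and 0.48), and Pgd, of the pentose phosphate pathway, was lower (-0.21). Tbc1d4 was higher (0.49, adjusted p = 0.0445) and Akt1, a kinase of insulin signalling, lower (-0.33, adjusted p = 0.0399). The 12 synthesis genes and the 8 other transporters gave 0 calls. Between PBMC-hCG and control mice 3 of the 27 glycolysis genes were higher and 10 lower, and 0 and 5 of the 8 pentose phosphate genes, beside 31.8% of all genes called.

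Because the values come from whole uterine horns, fewer cells of a type and less RNA per cell cannot be told apart. The marker counts that follow stand beside 21.9% of all genes called between IF and control mice. For PBMC-hCG mice these shares were 13.6% against IF and 31.8% against control. Of the 8 smooth muscle markers 1 was called lower in IF than in control mice and 5 lower in PBMC-hCG than in control mice. Their sums were 6250 to 11531 TPM in controls, 6298 to 7765 in IF, 6107 to 7514 in PBMC and 5072 to 6397 in PBMC-hCG mice. Of the skeletal muscle list, whose Myh1 and Myh4 were at 0 in every library, the sum was 145 TPM in control replicate 2, 373 to 415 TPM in the other controls and 97.9 to 163 TPM in all other mice. Most of this sum was Acta1, an alpha-actin gene of muscle (116 TPM in control replicate 2 and 334 to 370 TPM in the other controls). Slc2a12 was low in the same control mouse, and Pygm was at its lowest control value there. Control replicate 5 had the highest control sums of both the skeletal (415 TPM) and the smooth muscle list (11531 TPM). Its Slc2a12 (54.6 TPM) and Pygm (35.2 TPM) were nonetheless the next lowest among the controls. Of the 8 endothelial markers 7 were higher in IF and 8 in PBMC-hCG than in control mice, with sums of 421 to 521 TPM in controls, 577 to 668 TPM in IF and 660 to 771 TPM in PBMC-hCG mice. Of the 8 epithelial markers 4 were higher and 1 lower in IF than in control mice, with sums of 1130 to 1576 TPM in IF mice. Of the tested leukocyte markers 3 of 7, and of the stromal markers 3 of 8, were higher in IF than in control mice, with 0 lower. Leukocyte sums were 140 to 150 TPM in controls, 161 to 209 TPM in IF, 157 to 184 TPM in PBMC and 178 to 207 TPM in PBMC-hCG mice, and stromal sums were 5214 to 9088, 9104 to 10727, 9383 to 11366 and 9686 to 11196 TPM. Of 6 tested red cell and platelet markers 2 were lower in PBMC-hCG than in IF mice and 2 lower than in control mice, as Hk2 was, with sums of 669 to 1314 TPM in control, 653 to 1827 TPM in IF, 499 to 1704 TPM in PBMC and 358 to 891 TPM in PBMC-hCG mice. Within each of the 4 groups the mouse with the highest sum was not the one with the highest Hk2. Control replicate 2 had the highest control sum (1314 TPM) and the lowest control Hk2 (8.70 TPM). In PBMC-hCG replicate 4 the sum was the highest (891 TPM) and Hk2 the lowest (6.12 TPM) of that group. IF replicate 3 had both the lowest sum (653 TPM) and the lowest Hk2 (10.8 TPM) of the IF mice. Whether Hk2 goes with these sums was not tested. Without control replicates 2 and 5 the calls between IF and control were 3 of 8 endothelial markers higher, 1 of 7 leukocyte markers higher and 2 of 8 smooth muscle markers lower. The part of these differences in tissue makeup in the values of the 10 genes was not tested.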

How the data were processed

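The labels gave each mouse its group and replicate number, and the labels and the study's methods gave the doses. The authors deposited TPM per gene, made, per the submitters' processing notes and the methods, by trimming with Trimmomatic, mapping to mm10 with HISAT2 and assembly with StringTie. TPM keep no read depth, so no counting error is given, and the count test of the study could not be repeated. Values were taken as log2(TPM + 0.1), which draws fold changes of low genes toward 0. Genes with 0 TPM in any library were left out, and the remaining 18706 were fitted over the 4 groups with limma 3.58.1 (R 4.3.3) with a mean-variance trend, and two-sided p-values were adjusted by Benjamini-Hochberg within each of 6 comparisons. Nothing says that mice came from separate litters, and p-values measure the spread between mice. The fit was tested on simulated data.

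The members and lists were chosen with earlier results of these data known. Named were the 10 members with all values, up to 3 listed genes per list and comparison (IF against control, PBMC-hCG against IF) with the largest fold changes among those called at a mean of 1 TPM or more, and 3 genes most like each of the 3 members with the largest F. Positions and promoters are from RefSeq (GRCm38.p6), matched by gene identifier. Alternatives were other pseudocounts (1 and 0.01), filters, scalings, fits, a replicate block and each mouse left out.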

Additional observations from a re-analysis of the deposited data

Results flagged for a closer look

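Among the 40 sets of 5 mice (10 genes in 4 groups), 5 held a mouse whose gap to its nearest neighbour was more than 0.71 of the whole range of its group, Dixon's limit for 5 values, which chance passes in about 1 of 20 sets. Slc2a1 was at 52.3 TPM in PBMC-hCG replicate 1, above the other 4 mice of that group. Hk2 was at 10.9 TPM in the same mouse, also above the other 4. Slc2a8 was at 19.9 TPM in control replicate 2, above the other controls. Slc2a8 was at 10.5 TPM in PBMC replicate 5, below the others of its group, and Gys1 was at 17.0 TPM in that mouse, also below. Slc2a3 was not among them, since its control values formed sets of 3 and 2 mice.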

How the results depend on the processing

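No log2 fold change of the 10 genes that was called changed sign under any alternative, and of the values of single genes under all alternatives 1081 stayed on their side of the threshold, 67 lost and 22 gained a call. The 1081 include values of genes called neither with all mice nor in the alternative, so they do not measure how well the calls held. With all mice 4 of the 10 genes were called for IF against control, 0 for PBMC against IF, 3 for PBMC-hCG against IF, 0 for PBMC-hCG against PBMC, 3 for PBMC against control and 4 for PBMC-hCG against control. With only the 2 groups compared in the fit it was 2 for IF against control (Slc2a1 and Pygm) and 0 for PBMC against control. Without a filter on low values it was 2 for PBMC-hCG against control (Slc2a3 and Hk2), where more genes were adjusted over. By the DEG criteria it was 1 for IF, PBMC and PBMC-hCG against control and for PBMC-hCG against IF. With each mouse left out in turn it ranged from 4 to 5 for IF against control, 0 to 1 for PBMC against IF, 0 to 5 for PBMC-hCG against IF, 0 to 0 for PBMC-hCG against PBMC, 1 to 4 for PBMC against control and 1 to 7 for PBMC-hCG against control, the last highest without control replicate 2, where 7513 of all 18706 genes were called against 5941 with all mice. Without control replicates 2 and 5, chosen after seeing the data, it was 5, 4 and 6 for IF, PBMC and PBMC-hCG against control, beside 4565, 3874 and 6336 of all genes (4104, 3653 and 5941 with all mice). The causes of these changes were not tested.

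The replicate numbers name no shared litter or day. Deviations of same-numbered mice from their group means correlated between -0.25 and 0.46 over 30 pairs (median -0.0097, 8 pairs over 0.1). Of 20 mice, 2 correlated best with their own number, so over all genes no general pairing by number was seen. Replicate 5 had the highest Hk2 and Slc2a1 and the lowest Pygl of its group in control, IF and PBMC mice, but not in PBMC-hCG mice. Whether some same-numbered mice were handled together was not tested. With the replicate block 4 genes were called for IF against control, 4 for PBMC-hCG against IF (Pygl in addition, with 3215 of all genes called against 2544), 0 for PBMC against IF and for PBMC-hCG against PBMC, 3 for PBMC against control and 4 for PBMC-hCG against control. Median ratio scaling changed the split of all called genes between PBMC-hCG and IF from 1423 higher and 1121 lower to 1181 higher and 1467 lower, and between PBMC-hCG and control from 3772 and 2169 to 2797 and 2966, that of IF against control from 2509 and 1595 to 2123 and 2083, and that of PBMC against control from 2400 and 1253 to 1856 and 1676. Quantile normalization gave 2161 and 2093, 1991 and 1727, and 3208 and 2800 for IF, PBMC and PBMC-hCG against control. Under median ratio scaling the calls for PBMC-hCG against control were Slc2a3, Gys1, Gbe1 and Hk2 in place of Slc2a3, Slc2a8, Pygl and Hk2. Over the whole table, 2544 genes were called between PBMC-hCG and IF mice, 812 without a filter on low values and 0 to 5061 with 1 mouse left out, and between IF and control 4104, or 2473 with only these groups in the fit. Depth limits of low values are unknown in TPM.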
